A study of Mus musculus with 6 samples.

Results

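Small nucleolar RNA (snoRNA) genes were examined in CD4 and CD8 double-positive (DP) thymocytes, an immature T cell stage of the thymus, from Hdac3 knockout and wild-type mice. The members were taken from the annotation of the array as the probe sets with 1 gene symbol that starts with Snora, Snord or Scarna. There were 60 such probe sets, and they stood for 54 of the 19938 genes with a probe set of their own. By these symbols 31 were box C/D snoRNA genes (Snord), 20 were box H/ACA genes (Snora) and 3 were genes of small Cajal body RNAs (Scarna). Where a gene had several, the brightest over the 6 arrays was used, and probe sets with identical values were counted once. All 54 matched a mouse gene of assembly GRCm38.p6 in RefSeq by Entrez identifier, with lengths of 45 to 275 bases and a median of 91.

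The samples were total RNA of untreated C57BL/6 mice aged 3 weeks, on 3 arrays of Hdac3 knockout (KO) thymocytes and 3 arrays of wild-type (WT) thymocytes. Hdac3 is a histone deacetylase of corepressor complexes. The series names the knockout after LCK, a T cell kinase whose promoter drives transgenes in thymocytes, while what was removed from Hdac3, and by which recombinase, is not stated in the labels. The design text says that RNA was pooled from 2 mice of each genotype and also counts 3 biological replicates. Which mice went on which array is not stated. The p-values thus reflect how these arrays scatter, which may be technical, and the share that lies between animals cannot be told.

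Box C/D snoRNAs guide the methylation of the ribose, and box H/ACA snoRNAs the conversion of uridine to pseudouridine, at chosen positions of ribosomal RNA. A few act in the cutting of the rRNA precursor instead, and small Cajal body RNAs guide the same modifications on spliceosomal RNAs. Most vertebrate snoRNAs are not transcribed from promoters of their own: they lie in introns of host genes, are released after splicing and are protected by the core proteins of their class.

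All values are log2 signals as the authors deposited them, differences are KO minus WT, and a gene is called when its limma p, adjusted over 23410 probe sets with the Benjamini-Hochberg method, is under 0.05. Hdac3 had signals of 8.28, 8.32 and 8.32 on KO arrays 1 to 3, against 9.40, 9.42 and 9.44 on WT arrays 1 to 3. It fell by 1.12 (SE 0.08, limma adjusted p = 0.00035), in the direction of the labels. Of 12 DP markers, 10 had a probe set of their own, at mean signals of 7.54 to 12.98. Cd1d1 was the one called among them (-0.65), while Cd4, Cd8a and Rag1 differed by -0.00, -0.04 and 0.07. KO array 2 stood apart from the rest: all 12 neutrophil markers were highest there, with a mean signal of 4.47, 5.91 and 4.52 on KO arrays 1 to 3, against 4.34, 4.32 and 4.48 on WT arrays 1 to 3. None of the 12 was called by limma, and 2 were higher at an unadjusted p under 0.05. Of the macrophage, B cell, erythroid and thymic epithelium markers with a probe set of their own, 0 of 8, 0 of 5, 1 of 3 and 1 of 6 were called. The called genes were Klf1 (0.44) and Epcam (-0.37), where 1.75% of all probe sets tested were called higher and 4.04% lower. A call compares genotypes and can miss a rise on 1 array. Lyz2 of the macrophage list was 6.65 on KO array 2, against 4.09 to 4.71 elsewhere. Over that list the median signal minus the WT mean was 0.02, 0.13 and 0.20 on KO arrays 1 to 3. The interquartile range of the signal was 3.06 to 3.25 on the KO arrays and 3.29 to 3.49 on the WT arrays.

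Most snoRNA genes had a signal at or above that of the median probe set. Their means over 6 arrays lay between 3.81 and 10.81, with a median of 7.26, and 48 of 54 were at or above the median of all probe sets tested, which was 5.77. The 8 with the highest signal were Snord57, Snord15b, Scarna17, Snora52, Snord33, Snord14e, Snord49b and Snord22, and the 5 with the lowest had means between 3.81 and 5.41. A signal depends on the probes as well as on the RNA, so its order is not an order of abundance.

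Among the snoRNA genes, as among all probe sets tested, few were called different between KO and WT thymocytes. Of the 54, 0 were called higher and 2 lower, Snora30 and Snord53, on arrays where 1.75% of all probe sets tested were called higher, 4.04% lower and 5.79% in either direction. At an unadjusted p under 0.05 there were 2 higher and 2 lower, where 11.4% of all probe sets tested were higher and 13.8% lower. The median SE of a difference was 0.17 for the members and 0.11 over all probe sets tested. A difference of a given size was thus less likely to be called among the members. The median difference of the 54 was 0.02 in the deposited values, as over all probe sets tested. The median was -0.11 over 9307 probe sets termed here of like signal. They are those with a mean of at least 6.56, the lower quartile of the members. This set has a floor but no ceiling: its median signal was 8.20, against 7.26 for the members. It is thus brighter than the members and not matched to them. Differences ran from -0.55 to 0.31, with 28 above 0 and 26 below, and 27.4% of the probe sets of like signal were above 0. Across the other scalings and the fits that left out 1 array, the median of the members ran from -0.08 to 0.12. Groups did not overlap for 2 genes that were higher in KO and 2 that were lower, against 13.5% and 16.5% of all probe sets tested, or 30% in either direction. The 95% interval of the difference lay within 1 log2 unit of 0 for all 54 genes and within 0.5 for 25 of them.

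**Figure D1:**
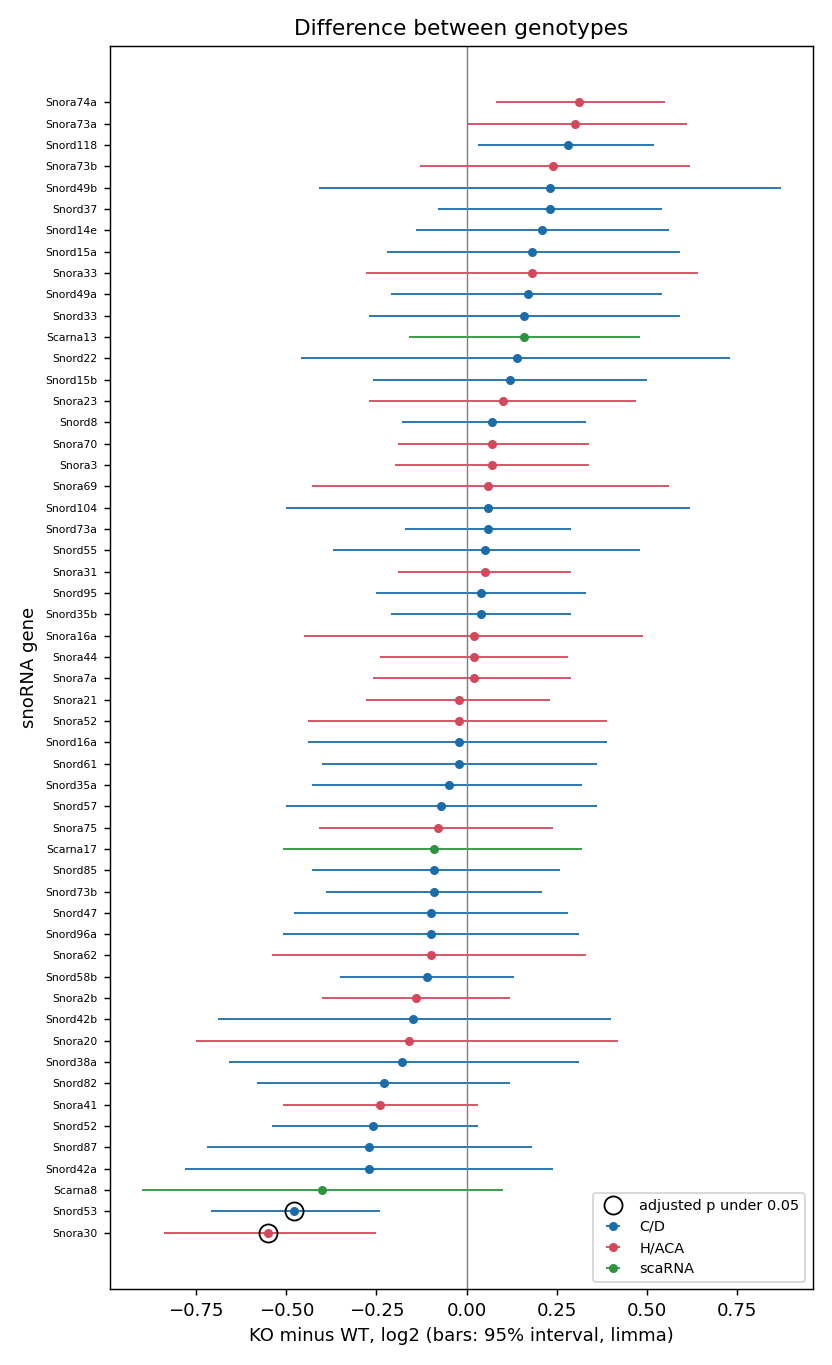
Differences between KO and WT thymocytes (KO minus WT, log2, horizontal axis) of the 54 snoRNA genes, as points with 95% limma intervals, coloured by class; a ring marks the genes with an adjusted p under 0.05. The ringed genes are Snora30 (-0.55) and Snord53 (-0.48), at the bottom, and the points spread on both sides of 0.

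The centre of each class was near 0 where it had more than 3 members. Among box C/D genes 1 of 31 was called (Snord53), with a median difference of -0.02, and among box H/ACA genes 1 of 20 (Snora30), with a median of 0.02. Of the 3 small Cajal body RNA genes 0 were called, and their differences were 0.16, -0.09 and -0.40.

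Snora30, an H/ACA gene that lies inside Srcap, showed the lowest difference of the 54. Its signals were 6.71, 6.32 and 6.58 on KO arrays 1 to 3, against 7.28, 7.08 and 6.89 on WT arrays 1 to 3. The groups did not overlap, with KO array 2 the lowest and WT array 1 the highest. The means were 6.54 ± 0.20 in KO and 7.08 ± 0.20 in WT (SD, n = 3 each). Snora30 fell by 0.55 (SE 0.13, 95% interval -0.84 to -0.25, limma adjusted p = 0.045), a signal 1.46-fold lower.

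Srcap, which encodes the ATPase of a complex that places the histone variant H2A.Z, was also called. Its signals were 9.53, 9.46 and 9.46 on KO arrays 1 to 3, against 10.03, 9.97 and 9.87 on WT arrays 1 to 3. All KO arrays lay below all WT arrays, and Srcap fell by 0.47 (SE 0.09, limma adjusted p = 0.018).

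Snord53, a C/D gene inside Wdr43, a gene for a factor of small-subunit rRNA processing, showed the same arrangement. Its signals were 6.61, 6.42 and 6.54 on KO arrays 1 to 3, against 7.17, 6.93 and 6.91 on WT arrays 1 to 3. All KO arrays were below all WT arrays, with means of 6.52 ± 0.09 in KO and 7.00 ± 0.14 in WT (SD, n = 3 each). Snord53 fell by 0.48 (SE 0.11, 95% interval -0.71 to -0.24, limma adjusted p = 0.033), which is 1.39-fold lower.

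Wdr43 had signals of 9.01, 8.93 and 8.84 on KO arrays 1 to 3, against 9.29, 9.27 and 9.23 on WT arrays 1 to 3. The groups did not overlap here either, but Wdr43 missed the threshold, with a difference of -0.34 (SE 0.09, limma adjusted p = 0.059). Neither snoRNA call, nor that of Srcap, held when KO array 2, KO array 3, WT array 1 or WT array 2 was left out, and Snord53 was also lost without KO array 1. Over all 6 fits that left out 1 array, the differences ran from -0.64 to -0.44 for Snora30 (highest adjusted p 0.14) from -0.53 to -0.40 for Snord53 (highest adjusted p 0.12) and from -0.52 to -0.44 for Srcap (highest adjusted p 0.078).

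An intronic snoRNA depends on the promoter of its host. The promoters of Srcap and Wdr43 are shown for that reason, with that of Rps3, the ribosomal protein gene that holds Snord15a and Snord15b, whose signals overlapped between genotypes. Each runs from 250 bases before the start of the gene to 50 bases after it in RefSeq, on GRCm38.p6: Srcap at chr7:127511733-127512032 on the plus strand, Wdr43 at chr17:71615965-71616264 on the plus strand and Rps3 at chr7:99483660-99483959 on the minus strand. Capitals mark the GC box GGGCGG, read on both strands.
Srcap: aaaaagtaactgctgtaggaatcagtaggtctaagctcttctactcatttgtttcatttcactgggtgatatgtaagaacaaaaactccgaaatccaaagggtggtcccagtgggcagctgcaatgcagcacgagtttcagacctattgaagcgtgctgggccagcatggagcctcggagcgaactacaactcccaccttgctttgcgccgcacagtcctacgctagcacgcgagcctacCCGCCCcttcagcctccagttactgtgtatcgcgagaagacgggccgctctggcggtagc
Wdr43: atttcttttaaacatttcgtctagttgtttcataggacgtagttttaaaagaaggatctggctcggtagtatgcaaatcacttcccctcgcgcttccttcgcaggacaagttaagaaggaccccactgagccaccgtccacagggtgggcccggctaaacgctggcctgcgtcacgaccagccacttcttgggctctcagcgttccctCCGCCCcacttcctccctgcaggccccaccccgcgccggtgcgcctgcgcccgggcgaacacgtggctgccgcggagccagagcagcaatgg
Rps3: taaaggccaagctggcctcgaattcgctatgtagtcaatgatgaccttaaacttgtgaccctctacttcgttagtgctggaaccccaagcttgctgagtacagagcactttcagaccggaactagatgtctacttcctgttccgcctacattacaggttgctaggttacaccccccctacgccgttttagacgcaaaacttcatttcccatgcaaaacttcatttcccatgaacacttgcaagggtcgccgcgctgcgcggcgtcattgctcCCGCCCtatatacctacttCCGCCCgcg
The window held 1 GC box in Srcap, 1 in Wdr43 and 2 in Rps3, and 35.7% of 32851 promoter windows of this length held at least 1. The match describes the letters and shows no binding.

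A pair of other genes had KO arrays that all lay above the WT arrays, without passing the test. Snora74a, an H/ACA gene known as U19 that lies in the noncoding gene Snhg4, had signals of 7.42, 7.46 and 7.17 on KO arrays 1 to 3, against 6.98, 7.12 and 7.01 on WT arrays 1 to 3. Its difference was 0.31 (SE 0.11, limma adjusted p = 0.11). Snord118, known as U8, acts in processing of the large-subunit rRNA and was the only member that lay in no other gene. Its signals were 4.27, 3.94 and 4.19 on KO arrays 1 to 3, against 3.77, 3.87 and 3.91 on WT arrays 1 to 3, a difference of 0.28 (SE 0.11, limma adjusted p = 0.15). These signals are among the 5 lowest of the 54.

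Snora73a and Snora73b, known together as U17, lie in Snhg3 and act in the cutting of the rRNA precursor. Snora73a had signals of 8.27, 7.82 and 8.26 on KO arrays 1 to 3, against 7.93, 7.85 and 7.66 on WT arrays 1 to 3. Snora73b had signals of 8.37, 7.72 and 8.36 on KO arrays 1 to 3, against 7.93, 8.01 and 7.77 on WT arrays 1 to 3. In both, KO arrays 1 and 3 were above every WT array and KO array 2 was not. Their differences were 0.30 (SE 0.14, limma adjusted p = 0.20) and 0.24 (SE 0.17, limma adjusted p = 0.39). After quantile normalization and without KO array 2, a setting chosen after seeing the data, both were called, each at 0.57 (limma adjusted p = 0.030), where 0.641% of all probe sets tested were called higher. They have similar sequences, so signal may be shared between their probes.

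**Figure D2:**
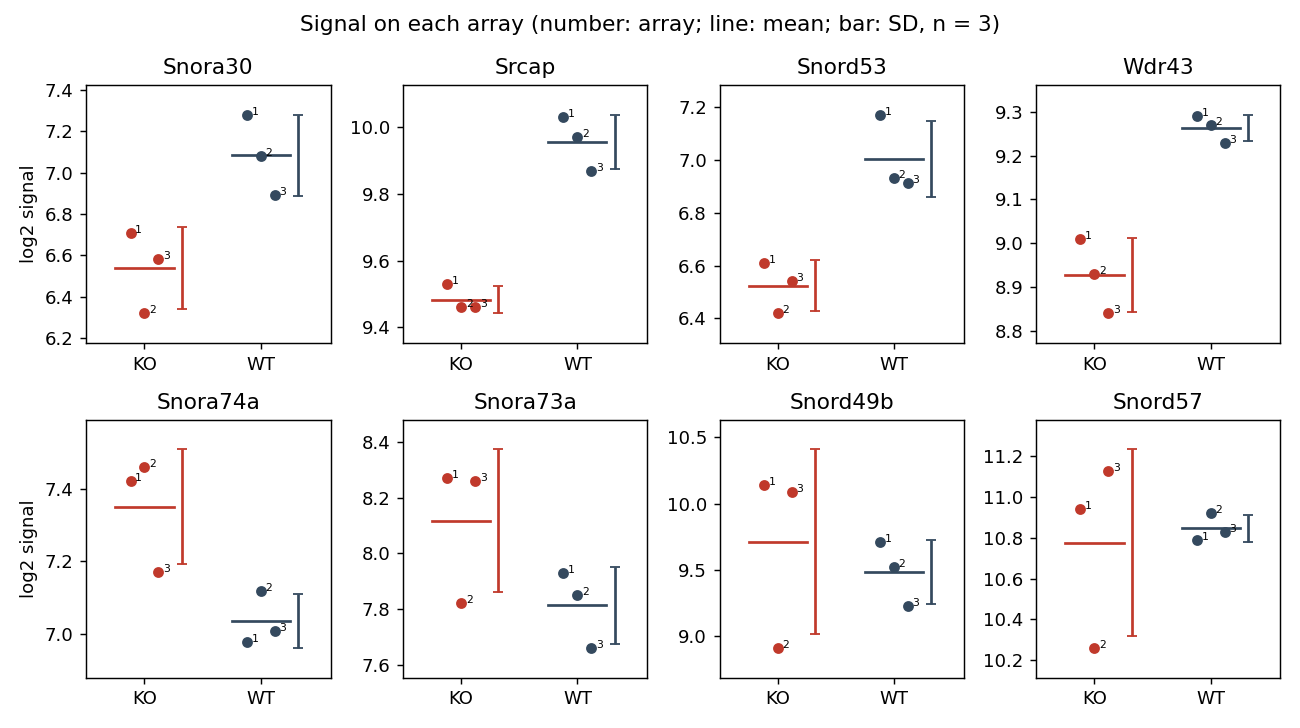
Log2 signal (vertical axis, a scale of its own in each panel) on each KO and WT array of Snora30 with its host Srcap, Snord53 with its host Wdr43, and Snora74a, Snora73a, Snord49b and Snord57. Points are arrays with their number, lines are means and bars the SD over 3 arrays; KO and WT do not overlap in the first 5 panels, and KO array 2 is the lowest point for Snora30, Snord53, Snord49b and Snord57.

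The signal of snoRNA genes scattered between arrays of 1 genotype. Their median within-group SD was 0.27, against 0.13 over all probe sets tested, 0.07 over the 23 host genes with a probe set of their own, 0.08 over 61 ribosomal protein genes and 0.14 over 300 microRNA genes. Over the 9307 probe sets of like signal it was 0.12. By class the median was 0.28 for box C/D, 0.20 for box H/ACA and 0.31 for small Cajal body RNA genes, and 48 of 54 members were above the median of all probe sets. With it went larger errors: the median SE of a difference was 0.17 for the members, from 0.10 to 0.29, and 0.11 over all probe sets tested.

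The spread lay mainly on KO array 2. It was the lowest of the 6 arrays for 35 of 54 members (64.8%), against 21.9% of all probe sets tested and 39.0% of those with like signal. The share was 17.4% for host genes, 16.7% for microRNA genes and 54.1% for ribosomal protein genes. It was 64.3% for the genes of snoRNA-protein particles and 68.6% for ribosome biogenesis genes, both described below. After quantile normalization it was 57.4% for the members, 22.8% for probe sets of like signal and 34.4% for ribosomal protein genes. It was then 46.4% for the particle genes and 37.1% for ribosome biogenesis genes. Among the KO arrays alone, KO array 2 was the lowest for 44 of 54 members, against 34.9% of all probe sets. The signal on KO array 2 minus the mean of KO arrays 1 and 3 had a median of -0.43 over the members, from -1.21 (Snord49b) to 0.24 (Snora31), and was below 0 for 48 of 54. The exceptions were Snora31, Snora74a, Snord37, Snora3, Snord14e and Snord73a. The same quantity had a median of 0.01 over the 23 host genes, -0.05 over ribosomal protein genes, 0.04 over microRNA genes and 0.01 over all probe sets tested. Over the probe sets of like signal its median was -0.06. It was below 0 for 88.9% of the members, 47.8% of all probe sets tested and 66.1% of those of like signal. For host genes, ribosomal protein genes and microRNA genes these shares were 43.5%, 72.1% and 45.3%. After quantile normalization 87.0% of the members and 50.3% of the probe sets of like signal were below 0. Neutrophil markers moved on the same array, and their part in the low snoRNA signal was not tested.

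The low signal appeared in each class and each kind of host. Its median was -0.49 for box C/D, -0.36 for box H/ACA and -0.58 for small Cajal body RNA genes. It was -0.63 for the 21 members inside ribosomal protein genes, -0.53 for the 12 inside noncoding genes and -0.30 for the 17 inside other protein-coding genes. Across the 54 members its Pearson correlation was 0.10 with gene length and -0.39 with mean signal, as a description of genes measured on the same arrays.

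Array 3 of WT was low as well, to a lesser extent. Its signal minus the mean of WT arrays 1 and 2 had a median of -0.21 over the members and was below 0 for 43 of 54 (79.6%). The median was -0.00 over all probe sets tested, with 50.6% below 0, and -0.09 over those of like signal, with 69.1% below 0. After quantile normalization 72.2% of the members and 51.9% of the probe sets of like signal were below 0. In the deposited values the quantities for KO array 2 and WT array 3 were both below 0 for 38 of 54 members. Their Pearson correlation across the 54 was 0.01, so the size on one array did not follow that on the other. The median over members of the signal minus the gene's WT mean was 0.18, -0.32 and 0.13 on KO arrays 1 to 3, against 0.06, 0.06 and -0.14 on WT arrays 1 to 3. KO arrays 1 and 3 were thus the highest of the 6 and KO array 2 the lowest. After quantile normalization these medians were 0.22, -0.25 and 0.18 on KO arrays 1 to 3, against 0.01, 0.06 and -0.10 on WT arrays 1 to 3, in the same arrangement.

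**Figure D3:**
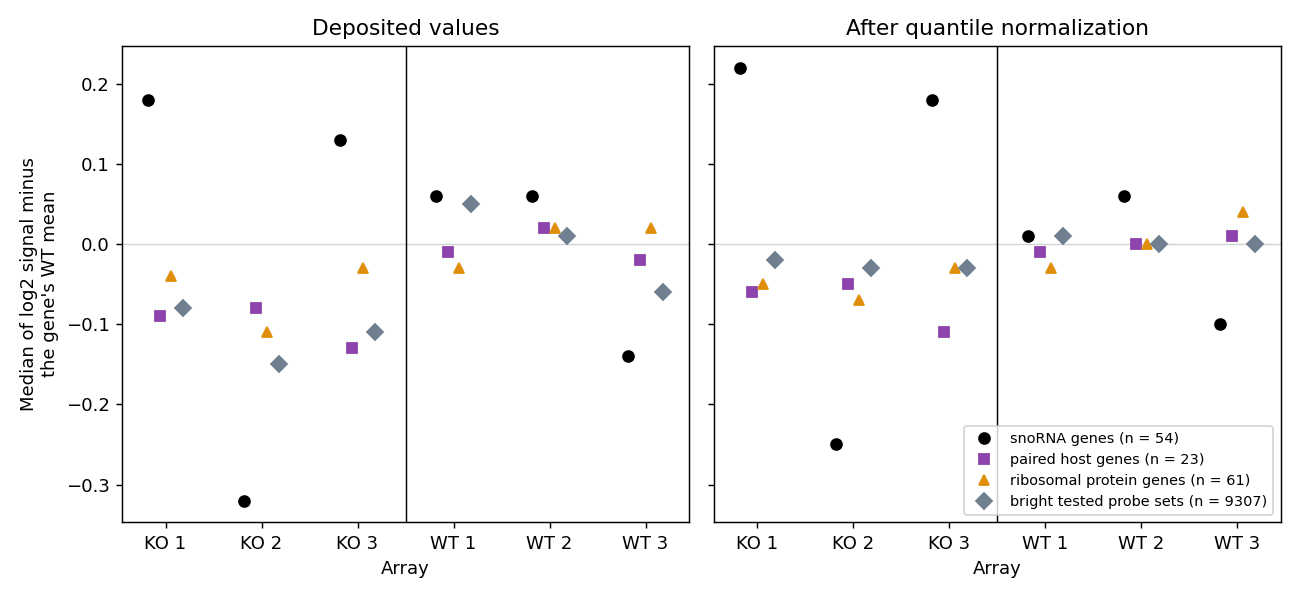
Median over each gene set of the log2 signal minus the gene's WT mean (vertical axis) on each array, for deposited values and after quantile normalization. The snoRNA genes (black) reach -0.32 on KO array 2 and 0.18 and 0.13 on KO arrays 1 and 3, while host genes, ribosomal protein genes and probe sets of like signal stay between -0.15 and 0.05.

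The balance of signs depended on the arrays used. Without KO array 2, 43 of 54 differences were above 0 and 11 below, with a median of 0.12, and 0 were called. In that fit 51.8% of all probe sets tested and 30.8% of those of like signal were above 0. At an unadjusted p under 0.05, 11 members were then higher and 2 lower, where 7.36% of all probe sets tested and 5.31% of those of like signal were higher. Without KO array 1, 17 members were above 0 and 37 below, with a median of -0.08. Of all probe sets tested 53.0% were then above 0, and of those of like signal 25.8%. At an unadjusted p under 0.05, 0 members were higher and 8 lower, where 12.7% of all probe sets tested and 23.6% of those of like signal were lower. Quantile normalization without KO array 2 gave 20 higher and 2 lower at that threshold, where 6.49% of all probe sets tested and 8.90% of those of like signal were higher. Median centring of each array, which moved the median of all probe sets to -0.06, gave 15 above 0 and 39 below, and quantile normalization gave 36 above 0 and 18 below, with a median of 0.09, against 0 for all probe sets and -0.03 for those of like signal. The count of members on each side of 0 thus moved with single arrays and with scaling, and only differences of called genes are described here as falls.

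Of the genes with the highest signals, 4 of 5 described here were lowest on KO array 2. Snord57, a C/D gene inside Nop56, had signals of 10.94, 10.26 and 11.13 on KO arrays 1 to 3, against 10.79, 10.92 and 10.83 on WT arrays 1 to 3. Snord15b, a C/D gene inside Rps3, had 11.05, 10.32 and 10.88 on KO arrays 1 to 3, against 10.56, 10.77 and 10.56 on WT arrays 1 to 3. In both, KO array 2 was the lowest of the 6 and the differences were -0.07 and 0.12. Snora52, an H/ACA gene inside Rplp2, had 10.13, 9.38 and 10.16 on KO arrays 1 to 3, against 9.88, 9.98 and 9.86 on WT arrays 1 to 3, a difference of -0.02. Snord33, a C/D gene inside Rpl13a, had 9.95, 9.23 and 10.05 on KO arrays 1 to 3, against 9.51, 9.66 and 9.59 on WT arrays 1 to 3, a difference of 0.16. The WT arrays of these 4 genes lay close together, with KO array 2 below and KO arrays 1 and 3 above them. Snord14e, inside the chaperone gene Hspa8, did not follow: it had 9.50, 9.74 and 9.96 on KO arrays 1 to 3, against 9.53, 9.25 and 9.79 on WT arrays 1 to 3, a difference of 0.21. None of these 5 was called.

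The largest within-group SD was that of Snord49b, a C/D gene in the noncoding gene 2410006H16Rik, at 0.52. Its signals were 10.14, 8.91 and 10.09 on KO arrays 1 to 3, against 9.71, 9.52 and 9.23 on WT arrays 1 to 3, a difference of 0.23 with a 95% interval of -0.41 to 0.87. Snord22, known as U22 and placed in Snhg1, had 9.89, 8.71 and 9.45 on KO arrays 1 to 3, against 9.11, 9.58 and 8.94 on WT arrays 1 to 3, a difference of 0.14. Both were lowest on KO array 2, and their KO arrays spanned more than 1 log2 unit. Snora20, an H/ACA gene inside the chaperonin gene Tcp1, had 6.70, 5.73 and 6.39 on KO arrays 1 to 3, against 6.85, 6.50 and 5.96 on WT arrays 1 to 3, a difference of -0.16. Snord104 had 8.99, 8.13 and 9.16 on KO arrays 1 to 3, against 8.64, 8.43 and 9.03 on WT arrays 1 to 3, a difference of 0.06. The groups overlapped widely in all 4. Snord42a and Snord42b, which share the host Rpl23a, had differences of -0.27 and -0.15 and SDs of 0.41 and 0.43.

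**Figure D4:**
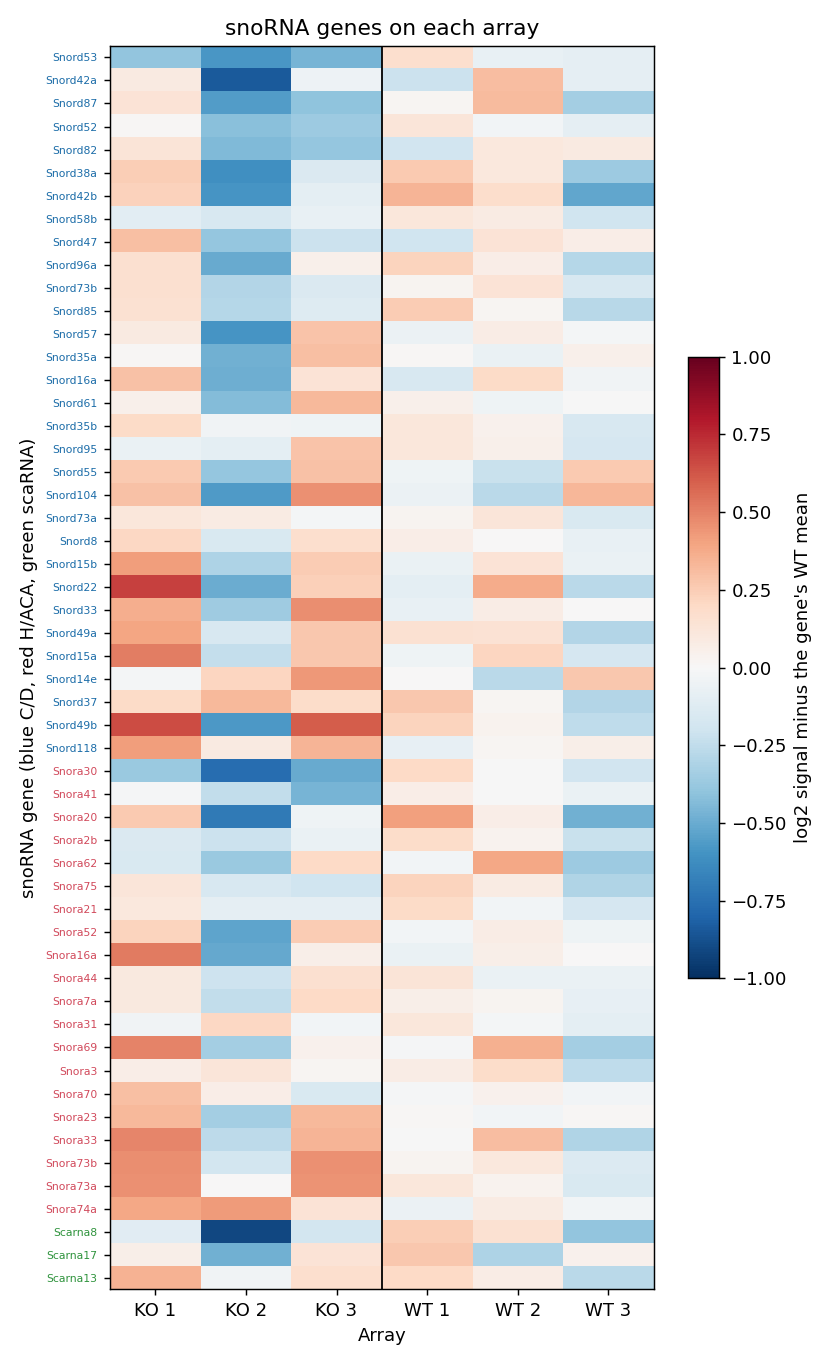
Log2 signal minus the gene's WT mean (colour, red above and blue below) of the 54 snoRNA genes (rows, grouped by class and ordered by difference) on the 3 KO and 3 WT arrays (columns). The column of KO array 2 is blue for most genes, with a median of -0.32. The called genes Snord53 and Snora30 are blue on all 3 KO arrays, as are some uncalled genes such as Scarna8.

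The small Cajal body RNA genes were not called. Scarna8, inside Haus6, had signals of 6.20, 5.41 and 6.13 on KO arrays 1 to 3, against 6.56, 6.47 and 5.92 on WT arrays 1 to 3, and its difference of -0.40 (SE 0.22, limma adjusted p = 0.29) was the third lowest of the 54. Scarna13, in the noncoding gene Snhg10, had 8.13, 7.75 and 7.95 on KO arrays 1 to 3, against 7.98, 7.86 and 7.51 on WT arrays 1 to 3, a difference of 0.16. Scarna17 had 10.51, 9.97 and 10.59 on KO arrays 1 to 3, against 10.72, 10.14 and 10.49 on WT arrays 1 to 3, a difference of -0.09. Groups overlapped in all 3, and the lowest of the 6 arrays was KO array 2 for Scarna8 and Scarna17 and WT array 3 for Scarna13.

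By position, 50 of 54 members lay inside exactly 1 gene, 38 of these inside a protein-coding gene and 12 inside a noncoding one. Genes for ribosomal proteins held 21. Another 3 lay inside 2 genes, and Snord118 in none. A host with a probe set of its own was found for 27 members, in 23 different hosts. Of these hosts 1 of 23 was called, Srcap, and their median difference was -0.10. The sign of snoRNA and host was the same in 18 of 27 pairs. The Pearson correlation of both differences was 0.67 over the 27 pairs and 0.42 without Snora30 and Snord53, as a description of pairs that share arrays and, in part, hosts. Probes for a snoRNA inside an intron can also bind the unspliced host transcript, so the precursor and the mature snoRNA cannot be told apart here.

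In other pairs the differences were of unequal size or sign, and snoRNA and host were not tested against each other. Snora23 differed by 0.10 and its host Ipo7, an importin gene, by -0.24. Snord57 differed by -0.07 and its host Nop56, itself a core protein of C/D snoRNPs, by 0.15. Scarna8 differed by -0.40 and Haus6, a gene of the mitotic spindle, by -0.13. None of these genes was called.

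**Figure D5:**
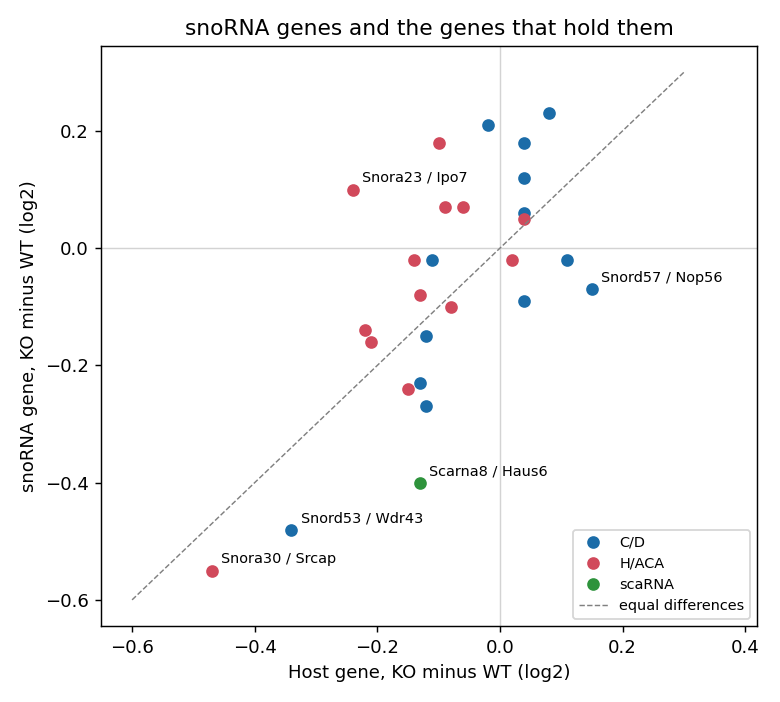
Difference between KO and WT (KO minus WT, log2) of 27 snoRNA genes (vertical axis) against that of the gene that holds them (horizontal axis), coloured by class; the dashed line marks equal differences. Snora30 with Srcap and Snord53 with Wdr43 lie at the lower left, and 18 of 27 points have the same sign on both axes.

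A further view comes from hosts that hold more than 1 member, since such snoRNAs leave the same primary transcript. There were 10 hosts with 2 members each, and the difference had the same sign in 6 of these pairs and opposite signs in 4. Snord15a and Snord15b in Rps3 differed by 0.18 and 0.12, and Snora75 and Snord82 in Ncl, the nucleolin gene, by -0.08 and -0.23. Snord33 and Snord35a in Rpl13a differed by 0.16 and -0.05. None of these 6 genes was called.

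Genes for the proteins of snoRNPs and their assembly mostly had lower signals in KO, as did most probe sets of like signal. Of 28 measured, 0 were called higher and 2 lower, against 1.75% and 4.04% of all probe sets tested. Of the 9307 probe sets of like signal, 182 were called higher and 671 lower. The median difference of the 28 was -0.23, against 0.02 over all probe sets tested and -0.11 over those of like signal. Below 0 were 27 of the 28, and 6760 of the 9307 probe sets of like signal. All KO arrays lay below all WT arrays for 16 of 28, against 16.5% of all probe sets tested and 32.2% of those of like signal. After quantile normalization the median was -0.13, against -0.03 for probe sets of like signal. Then 20 of 28 were below 0, where 43.9% of those of like signal were above 0. For 9 of 28 all KO arrays then lay below all WT arrays, against 13.6% of all probe sets tested and 20.5% of those of like signal.

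In the deposited values the 2 called genes both serve H/ACA RNAs, but which genes passed changed with the processing. Dkc1, the pseudouridine synthase dyskerin, had signals of 7.99, 7.86 and 8.01 on KO arrays 1 to 3, against 8.36, 8.61 and 8.25 on WT arrays 1 to 3, and fell by 0.45 (SE 0.11, limma adjusted p = 0.048). Naf1, an assembly factor of H/ACA particles, had 5.99, 5.72 and 5.95 on KO arrays 1 to 3, against 6.75, 6.72 and 6.25 on WT arrays 1 to 3, and fell by 0.69 (SE 0.14, limma adjusted p = 0.028). In both, every KO array was below every WT array. Dkc1 held its call only without WT array 3 among the fits that left out 1 array (highest adjusted p 0.15), and Naf1 lost it without KO array 2, KO array 3, WT array 1 or WT array 2 (highest adjusted p 0.10). Dkc1 was also not called after quantile or cyclic loess normalization (limma adjusted p = 0.11 in each). With all probe sets tested its limma adjusted p was 0.058. The H/ACA snoRNA genes, with a median difference of 0.02, had 1 of 20 called.

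Core proteins of C/D particles gave 0 of 4 called, with 3 lower at an unadjusted p under 0.05, where 13.8% of all probe sets tested and 25.8% of those of like signal were lower. Of the H/ACA core proteins 3 of 4 were lower at that p as well. Nop58 differed by -0.39 (limma adjusted p = 0.077), the methyltransferase gene Fbl by -0.29 (limma adjusted p = 0.12) and Nop56 by 0.15. Nop58 was called after median centring (limma adjusted p = 0.049) and without dim probe sets (limma adjusted p = 0.046). It was also called with a trend and robust prior (limma adjusted p = 0.037), with array weights (0.029) and without WT array 3 (0.037). The value of Fbl is that of the brighter of 2 probe sets, and their mean gave -0.02. Among Cajal body genes 0 of 4 were called and 2 were lower at an unadjusted p under 0.05: Smn1, the gene of an snRNP assembly protein, and Coil, that of the scaffold protein coilin, differed by -0.28 and -0.23. Of 6 measured noncoding host genes 0 were called and 1 was higher at an unadjusted p under 0.05, with differences of 0.22 for Snhg17, 0.13 for Snhg11 and 0.07 for Gas5. Averaging the probe sets of each gene gave 0.01 for Snhg17 and 0.28 for Snhg11. Among 35 genes of ribosome biogenesis 0 were called higher and 1 lower, and 0 were higher and 16 lower at an unadjusted p under 0.05. Their median was -0.22, or -0.10 after quantile normalization, against -0.11 and -0.03 for probe sets of like signal. That gene was Myc, a transcription factor that drives ribosome production, with signals of 6.84, 6.18 and 6.81 on KO arrays 1 to 3, against 7.95, 7.91 and 7.76 on WT arrays 1 to 3. Myc fell by 1.26 (SE 0.17, limma adjusted p = 0.0035).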

How the data were processed

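Labelled sense-strand target from total RNA was hybridised to Affymetrix whole-transcript arrays, per the labels' protocols. The log2 values used are those the authors deposited, 1 column per array; that they are log2 was read from their range, 1.94 to 13.98. How background, normalization and probe summary were handled is not stated in the sources used here. Groups came from the sample titles.

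Of 28853 probe sets, the 23410 with a gene in the platform's annotation were fitted with limma 3.58.1 in R 4.3.3 (lmFit and eBayes, 2 group means, two-sided p-values), with a threshold of 0.05 after Benjamini-Hochberg adjustment. Exact permutation of 3 against 3 arrays cannot reach a p under 0.1 and was not run. The fit was tested on simulated data. The number of arrays limits the precision. Tables and figures were made in Python 3.11.15 with matplotlib 3.10.9.

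A host is a RefSeq gene of GRCm38.p6 whose span contains the snoRNA gene; the table gives no strand, so a shared strand was not checked. Members and gene lists were chosen with earlier results of these data known. Named were the called members, the 8 with the highest signal, the 6 with the largest within-group SD, all Scarna genes, their hosts, and from each list the called genes (up to 4) or the 2 with the smallest p; any other was chosen after its values were seen. Alternatives tried were other normalizations, filters, variance priors, array weights, a replicate block, leaving out single arrays, and averaging the probe sets of a gene.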

Additional observations from a re-analysis of the deposited data

How the results depend on the processing

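The number of snoRNA genes called lower in KO, 2 in the deposited values, was 1 after quantile normalization, 1 after cyclic loess normalization and 1 with all probe sets tested. Snora30 had adjusted p-values of 0.069, 0.061 and 0.055 there. Leaving out each array gave 0 to 2 lower and 0 to 0 higher, and a median difference from -0.08 to 0.12. Quantile normalization without KO array 2, chosen after seeing the data, gave 2 higher and 0 lower, with 437 calls over all probe sets in place of 1355. Leaving out each array gave 474 to 1946 calls, and array weights gave 2285. Called snoRNP protein genes, 2 in the deposited values, were 1 after quantile normalization, 1 after cyclic loess, 1 with all probe sets, 5 after median centring, 5 without dim probe sets, 5 with a trend and robust prior, 6 with array weights, 0 after quantile normalization without KO array 2, and 0 to 4 without 1 array. Called ribosome biogenesis genes, 1 in the deposited values, were 4 after median centring, 6 without dim probe sets, 4 with a trend and robust prior, 7 with array weights, 3 when the probe sets of a gene were averaged, and 1 to 7 without 1 array. Hosts were counted here over 29 genes, which are the 23 paired hosts and the 6 measured noncoding host genes. Without dim probe sets 27 of them remained. Called hosts, 1 in the deposited values, were 2 after median centring, 2 without dim probe sets, 2 with a trend and robust prior and 2 with array weights. Wdr43 was also called in these. There were 0 after quantile normalization without KO array 2, and 0 to 1 without 1 array. The causes were not tested. Replicate numbers did not pair the samples: the correlations of same-numbered arrays were 0.25, -0.07 and -0.03. With the replicate block there were 1162 calls in all, 0 snoRNA genes higher and 2 lower, and 1 snoRNP gene, Dkc1 having an adjusted p of 0.069. Over 39 named genes and 623 values under alternatives, 547 kept direction and side of the threshold, 34 lost the call, 11 gained it and 31 differences of uncalled genes moved across 0. Most of the 39 were not called in the deposited values, so most of the 547 belong to uncalled genes that stayed uncalled. All 34 losses fell on Snora30, Snord53, Srcap, Dkc1 and Naf1, while Hdac3 and Myc kept the call throughout.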

Other observations

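A further 41 probe sets carried a snoRNA symbol beside the symbol of another gene and were not counted as members. None of the 41 was called by limma, 0 were higher and 1 was lower at an unadjusted p under 0.05, and their differences ran from -0.34 to 0.27. Of these, 24 named copies of Snord116, the C/D snoRNA cluster of the imprinted Prader-Willi region. They held 7 different sets of values, with mean signals from 2.95 to 3.03 and differences from -0.13 to -0.03. The dimmest member had a mean of 3.81, and the level of the background was not used here.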
